A study of Solanum tuberosum with 10 samples.

Results

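The development of in vitro potato plantlets between 1 week and 4 weeks after subculture was followed by RNA sequencing in 4 of the 10 libraries of a time course. Solanum tuberosum cultivar Desirée was used. The 2 libraries at 4 weeks (ultrasonicated, control) were set against the 2 libraries at 1 week (ultrasonicated, control), and treatment arm was kept as an additive term. All plants came from node segments with a leaf that had been cut from 4-week-old plantlets and were grown on Murashige and Skoog medium without growth regulators. The ultrasonicated arm had been treated in liquid medium in an ultrasonic bath just after cutting, and the labels do not say if the control arm was immersed too. The tissue label reads stem and plantlet at both 1 and 4 weeks. Each library is a pool of 3 biological replicates, so there is 1 library per arm and time. The arms therefore stand in for replicates, and a p-value here weighs differences against the scatter of pools, not of plants.

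A node segment carries an axillary bud. On hormone-free medium the bud grows out into a shoot that forms its own leaves and roots, and within some weeks the segment has become a whole rooted plantlet. Chloroplast genes, starch and flavonoid enzymes, suppliers of methyl groups and defence peptides are among the genes that plant organs use to different degrees as they form and age. The deposited table gives a symbol for few genes and a functional description for none, so most features below are described by their values and positions.

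Total counts of the 4 libraries ran from 133040886 to 143590514. Between 24895 and 26690 features had at least 1 count. rRNA features took 0.0402% (ultrasonicated) and 0.136% (control) of counts at 4 weeks, against 0.256% and 0.275% at 1 week. The share was lower at 4 weeks in both arms, but it also differed between libraries of the same time. At 24 h it was 0.066% (ultrasonicated) and 2.19% (control). TMM factors, which scale libraries for composition, lay between 1.01 and 1.13. RBCS-2C, which encodes a Rubisco small subunit and marks green tissue, had at least 685 CPM (counts scaled to the library's effective size) in each of the 4 libraries. Markers of roots or tubers could not be named in the table. In such mixed tissue, fewer cells of a type and less RNA per cell cannot be told apart.

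At 4 weeks 315 features were higher and 539 lower than at 1 week, of 26147 tested. The rises are 1.2% and the falls 2.06% of the features tested, and all 854 calls together 3.27% (edgeR quasi-likelihood test, Benjamini-Hochberg adjusted p under 0.05). The median change was 2.04 log2 units among the rises and -2.03 among the falls, against 0.03 over all features. All 854 moved the same way in both arms, with both 4-week libraries on the same side of both 1-week libraries, as 28.1% (above) and 28.7% (below) of all tested features did. The calls were made on these libraries with the arms as replicates, so this agreement follows largely from the selection. Among the rises the median log2 ratio was 1.89 in the ultrasonicated arm and 1.72 in the control arm, and among the falls -2.26 and -1.56. The number of calls rested on all 4 libraries: leaving out the control arm at 4 weeks gave 216 calls, the ultrasonicated arm at 4 weeks 23, the control arm at 1 week 2 and the ultrasonicated arm at 1 week 0 (3645 at an unadjusted p under 0.05). It also rested on the early pairs, from which much of the spread was estimated, with 33 calls without the pair at 48 h, 220 without that at 24 h (210 without its control library alone, 2.19% of whose counts were rRNA) and 1735 without that at 0 h (1683 without its ultrasonicated library alone).

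**Figure D1:**
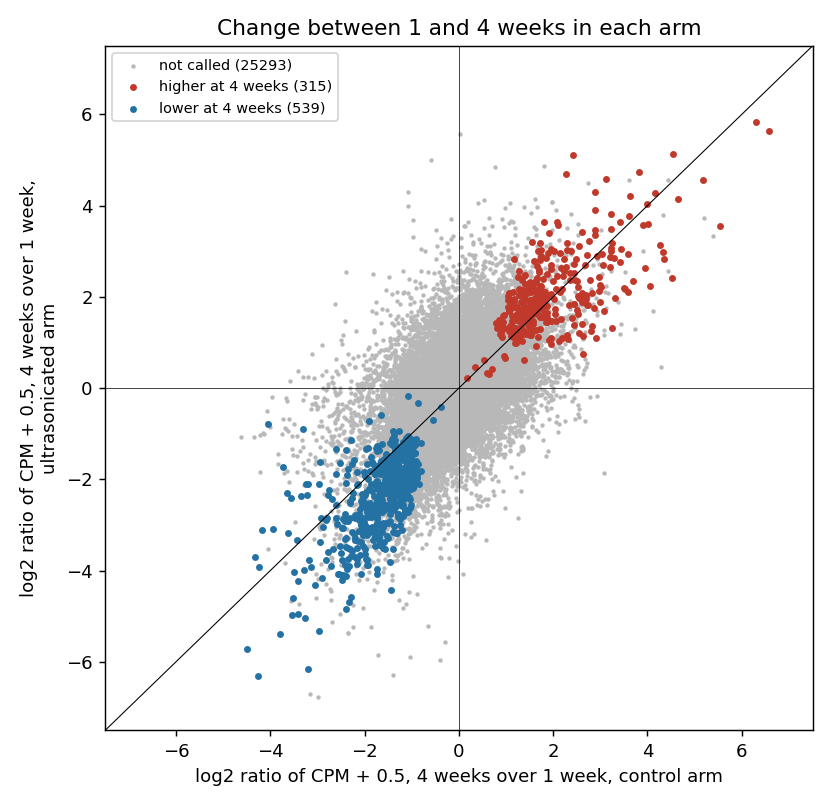
Log2 ratio of CPM + 0.5 at 4 weeks over 1 week in the control arm (x axis) and the ultrasonicated arm (y axis), with 1 point per tested feature and the diagonal drawn. The 315 features called higher at 4 weeks (red) lie in the upper right and the 539 called lower (blue) in the lower left. The calls were made on these same libraries.

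The called features were more abundant than most. Their median level over the 4 libraries was 24.1 CPM for the rises and 27.8 CPM for the falls, against 8.92 CPM over all tested features. A call is easier to reach at higher counts, and whether abundant features changed more was not tested. A fitted change of at least 4-fold was reached by 162 of the 315 rises and 276 of the 539 falls, and of at least 16-fold by 47 and 42. Over all tested features 3631 (13.9%) reached 4-fold and 1157 (4.4%) reached 16-fold in either direction, so most such changes were not called. The counts of the rises summed to 6.41% (ultrasonicated) and 6.35% (control) of the library's effective size at 4 weeks, against 1.84% and 2.01% at 1 week. The effective size is the total multiplied by the TMM factor, so these are not shares of all counts. Those of the falls summed to 1.15% and 1.4% of it at 4 weeks, against 5.2% and 3.95% at 1 week. Both groups were chosen on these libraries, so the sums are a description. Of the rises, 5 had no count in either library at 1 week and a mean of at least 1 CPM at 4 weeks, against 7 of all tested features (0.0268%). Of the falls, 5 had no count at 4 weeks and a mean of at least 1 CPM at 1 week, against 13 of all tested features (0.0497%). Feature spans differed between the groups, with medians of 2188 bases for the rises, 3325 for the falls and 2968 for all tested features.

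Beyond the genes fixed for naming, 4 identifiers are given that were included after their values were seen. The largest rise among called gene models without a symbol at a mean of at least 5 CPM was that of PGSC0003DMG400002899 on chromosome 12 (3156787 to 3157787). It had 40.5 CPM (ultrasonicated) and 64.5 CPM (control) at 4 weeks, against 0.225 and 0.32 CPM at 1 week. The change was 7.57 log2 units (SE 0.39, edgeR adjusted p = 0.00121). Next came PGSC0003DMG400010713 on chromosome 7 (36903263 to 36905080), with 101 and 217 CPM at 4 weeks, against 1.55 and 1.77 CPM at 1 week (log2 6.54, SE 0.409, edgeR adjusted p = 0.00282). In both genes the arms lay close together at 1 week and the control arm was the higher at 4 weeks. Their values had been 45.1 and 110 CPM (PGSC0003DMG400002899) and 1356 and 1557 CPM (PGSC0003DMG400010713) in the ultrasonicated and control explants at 0 h. Without the ultrasonicated library at 1 week both had an edgeR adjusted p of 0.0597, and without the control library at 1 week that of PGSC0003DMG400010713 was 0.055.

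Under the same limits (called, no symbol, mean of at least 5 CPM), the largest fall was that of PGSC0003DMG400020795 on chromosome 10 (49247297 to 49254377). It had 0.043 CPM (ultrasonicated, 7 counts) and 0.533 CPM (control, 81 counts) at 4 weeks, against 28 and 22.7 CPM at 1 week (log2 -7.45, SE 1.57, edgeR adjusted p = 0.0471). PGSC0003DMG400000794 on chromosome 4 (59085133 to 59085620) followed, with 0.0983 and 0.171 CPM at 4 weeks, against 8.56 and 12.1 CPM at 1 week (log2 -6.27, SE 1.08, edgeR adjusted p = 0.033). Both 4-week values lay far below both 1-week values in either gene. At 48 h, ultrasonicated and control explants had held 53.1 and 204 CPM of PGSC0003DMG400000794, against 0.207 and 0 CPM at 0 h. Both calls ended without any 1 of the 4 libraries (edgeR adjusted p from 0.064 to 0.293 for the first and from 0.073 to 0.239 for the other). The same held when the control library at 24 h (0.0761 and 0.0577) or the pair at 24 h (0.075 and 0.0573) or 48 h (0.0775 and 0.0654) was left out. That of PGSC0003DMG400020795 also ended with no arm term (log2 -6.46, edgeR adjusted p = 0.0701).

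Of 22 gene models with a symbol, 20 were tested, and 2 rose, 1 fell and 17 did not pass (15% called, against 3.27% of all features). Their median change was 0.18 log2 units. The 2 rises, METK1 and SN2, had a mean of at least 100 CPM over the 4 libraries. Of the 1866 tested features with such a mean, 57 rose and 82 fell. Both models labelled RPS18, a ribosomal protein, were too low to test, with at most 18 counts in any library. By list, 1 of 4 chloroplast genes fell (WHY1) with edgeR, and 0 of 2 starch genes, 0 of 4 translation genes (EIF5A2, EIF5A4, EIF5A5 and UBI3) and 0 of 4 genes of mitochondrial respiration and branched-chain breakdown passed. Of the 4 translation genes, EIF5A5 and UBI3 passed with DESeq2, and EIF5A5 with limma-voom. At an unadjusted edgeR p under 0.05 the 20 tested genes had 7: SN2, METK1, EIF5A5, WHY1, CHS1B, UBI3 and EIF5A4. Of all 26147 tested features, 5756 lay under the same cut.

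METK1 encodes an S-adenosylmethionine synthase, which makes the methyl donor of the cell and the precursor of ethylene and polyamines. It is the gene model PGSC0003DMG400018292 on chromosome 1 (78724855 to 78727233). METK1 stood at 1925 CPM (ultrasonicated) and 1753 CPM (control) at 4 weeks, against 606 and 685 CPM at 1 week. Every 4-week value lay above every 1-week value. The rise was 1.52 log2 units (SE 0.292, edgeR adjusted p = 0.0403), a ratio of 3.18 (95% exact binomial interval 3.15 to 3.2) in the ultrasonicated arm and 2.56 (2.54 to 2.58) in the control arm. In ultrasonicated and control explants METK1 had started at 887 and 1456 CPM (0 h), then stood at 210 and 188 CPM (24 h) and 364 and 345 CPM (48 h). Its 4-week level lay above all earlier ones, but the difference from 0 h did not pass (log2 0.67, edgeR adjusted p = 0.189).

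SN2 encodes snakin-2, a cysteine-rich antimicrobial peptide first isolated from potato tubers. Its gene model is PGSC0003DMG400001598 on chromosome 1 (87145671 to 87146801). SN2 had 468 CPM (ultrasonicated) and 448 CPM (control) at 4 weeks, against 127 and 56 CPM at 1 week. The arms lay close together at 4 weeks, and at 1 week the ultrasonicated arm was the higher. The rise was 2.36 log2 units (SE 0.483, edgeR adjusted p = 0.0448), a ratio of 3.69 (3.63 to 3.75) with ultrasound and 8 (7.82 to 8.19) without. Ultrasonicated and control explants at 0 h had held 735 and 1539 CPM, both above the 4-week values, a difference that did not pass (log2 -1.34, edgeR adjusted p = 0.114).

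WHY1 encodes a Whirly protein, which binds single-stranded DNA and is known in potato as a regulator of a pathogenesis-related gene. Its gene model is PGSC0003DMG400017627 on chromosome 5 (5903924 to 5907317). WHY1 had 11.9 CPM (ultrasonicated) and 7.08 CPM (control) at 4 weeks, against 30.1 and 25.2 CPM at 1 week. All 4-week values lay below all 1-week values, and the fall was -1.56 log2 units (SE 0.307, edgeR adjusted p = 0.0413). Ultrasonicated and control explants had held 5.54 and 6 CPM of WHY1 at the start (0 h), 16.8 and 17.7 CPM after 24 h and 24.8 and 18.6 CPM after 48 h. Its 1-week level was the highest of the 5 times in either arm.

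The calls of METK1, SN2 and WHY1 lie near the threshold. Each ended without any 1 of the 4 libraries, with log2 changes of 1.35 to 1.66 (METK1), 1.81 to 3.08 (SN2) and -1.91 to -1.28 (WHY1) and edgeR adjusted p from 0.0797 to 0.239, 0.107 to 0.233 and 0.0953 to 0.2. Each also ended without the control library at 24 h (edgeR adjusted p of 0.0595, 0.0724 and 0.0648), without the pair at 24 h (0.0593, 0.0721 and 0.0644) and on leaving out that at 48 h (0.0842, 0.084 and 0.0825). Those of METK1 (0.0631) and WHY1 (0.0575) ended on the 4 libraries alone, where SN2 kept 0.028, and that of WHY1 with total counts as the scaling (log2 -1.46, edgeR adjusted p = 0.0657).

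**Figure D2:**
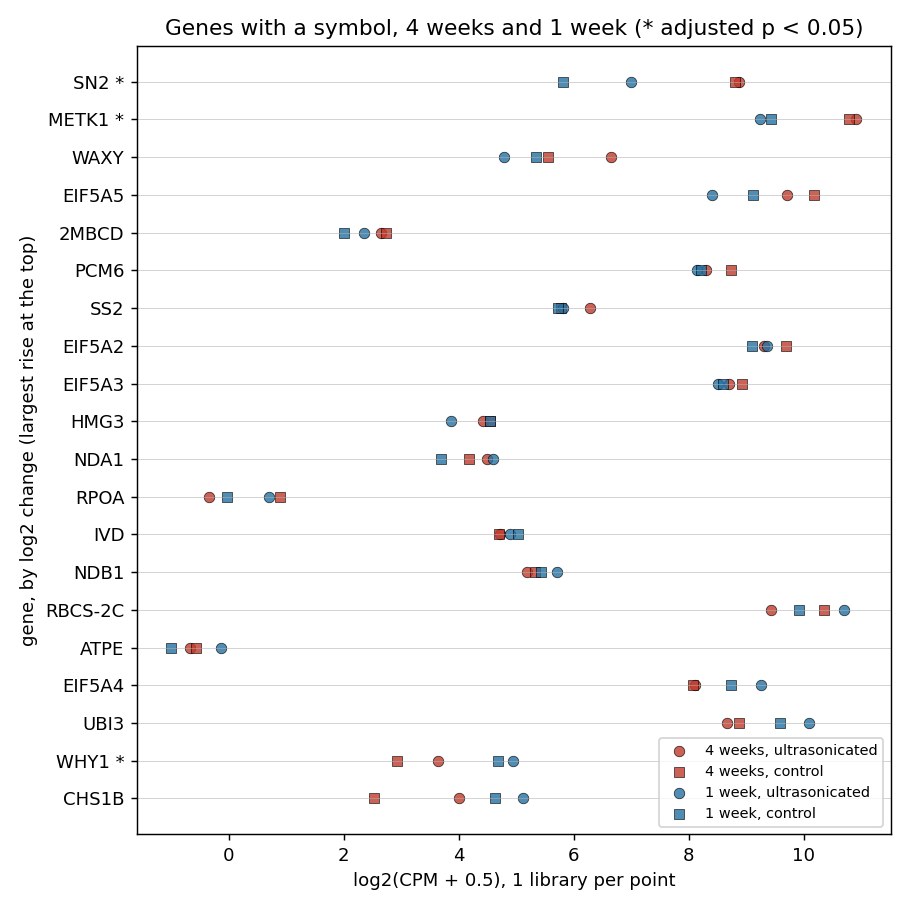
Level of the 20 tested genes with a symbol as log2(CPM + 0.5), with 1 point per library: 4 weeks in red, 1 week in blue, ultrasonicated as circles, control as squares. Genes are ordered by log2 change. SN2 and METK1 at the top and WHY1 near the bottom have both red points apart from both blue points and an edgeR adjusted p under 0.05.

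CHS1B, a chalcone synthase at the entry of flavonoid synthesis (PGSC0003DMG400029620 on chromosome 9, 58356999 to 58359082), had 15.6 CPM (ultrasonicated) and 5.27 CPM (control) at 4 weeks, against 34.4 and 24.4 CPM at 1 week. Both 4-week values lay below both 1-week values, as in 28.7% of all tested features. The difference of -1.61 log2 units did not pass with edgeR (SE 0.451, edgeR adjusted p = 0.0914, DESeq2 adjusted p = 0.0113). Starch genes did not pass either. WAXY, the granule-bound starch synthase that makes amylose, had 99.5 and 46.6 CPM at 4 weeks, against 27 and 39.9 CPM at 1 week (log2 1.18, SE 0.584, edgeR adjusted p = 0.286). Its ratio was 3.68 (3.56 to 3.82) in the ultrasonicated arm and 1.17 (1.13 to 1.21) in the control arm. SS2, a soluble starch synthase, had 77.5 and 54.6 CPM at 4 weeks, against 55.7 and 52.4 CPM at 1 week (log2 0.28, edgeR adjusted p = 0.676).

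Among translation genes, eIF5A is a translation factor that helps ribosomes past difficult peptide bonds and that is encoded by a small family of similar genes, so reads may be shared between its members. EIF5A5 (PGSC0003DMG400024558 on chromosome 3, 55475040 to 55477312) had 834 CPM (ultrasonicated) and 1158 CPM (control) at 4 weeks, against 337 and 556 CPM at 1 week, with a log2 difference of 1.17 (SE 0.293, edgeR adjusted p = 0.0706). It passed with DESeq2 (adjusted p = 0.0078) and limma-voom (0.034). EIF5A4 (PGSC0003DMG400026829 on chromosome 1, 51719395 to 51722322) differed in the other direction, with 277 and 269 CPM at 4 weeks, against 612 and 424 CPM at 1 week (log2 -0.91, SE 0.313, edgeR adjusted p = 0.142). EIF5A2 (log2 0.27) and EIF5A3 (0.26, not in the translation list) had edgeR adjusted p of 0.591 and 0.563. UBI3, a ubiquitin joined to a ribosomal protein (PGSC0003DMG400005199 on chromosome 1, 63211724 to 63212425), had 403 and 467 CPM at 4 weeks, against 1087 and 763 CPM at 1 week (log2 -1.07, SE 0.313, edgeR adjusted p = 0.101). DESeq2 gave UBI3 an adjusted p of 0.0236.

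RBCS-2C (PGSC0003DMG400012666 on chromosome 2, 41192215 to 41193945) went opposite ways in the arms. It had 685 CPM (ultrasonicated) and 1309 CPM (control) at 4 weeks, against 1664 and 960 CPM at 1 week. The ratio of 4 weeks to 1 week was 0.411 (0.409 to 0.414) with ultrasound and 1.36 (1.35 to 1.37) without. Over both arms the log2 difference was -0.46 (SE 0.577, edgeR adjusted p = 0.682), and the difference between the arms' changes did not pass (log2 -1.73, SE 1.11, edgeR adjusted p = 0.973). Rubisco small subunits form a family of near-identical genes, so the counts of this member are uncertain. ATPE and RPOA carry the names of plastid genes for an ATP synthase subunit and an RNA polymerase subunit, but were counted on nuclear chromosomes 5 and 12. ATPE had 20 and 26 counts in the ultrasonicated and control libraries at 4 weeks, against 59 and 0 at 1 week, and RPOA 47 and 207 counts, against 159 and 69.

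**Figure D3:**
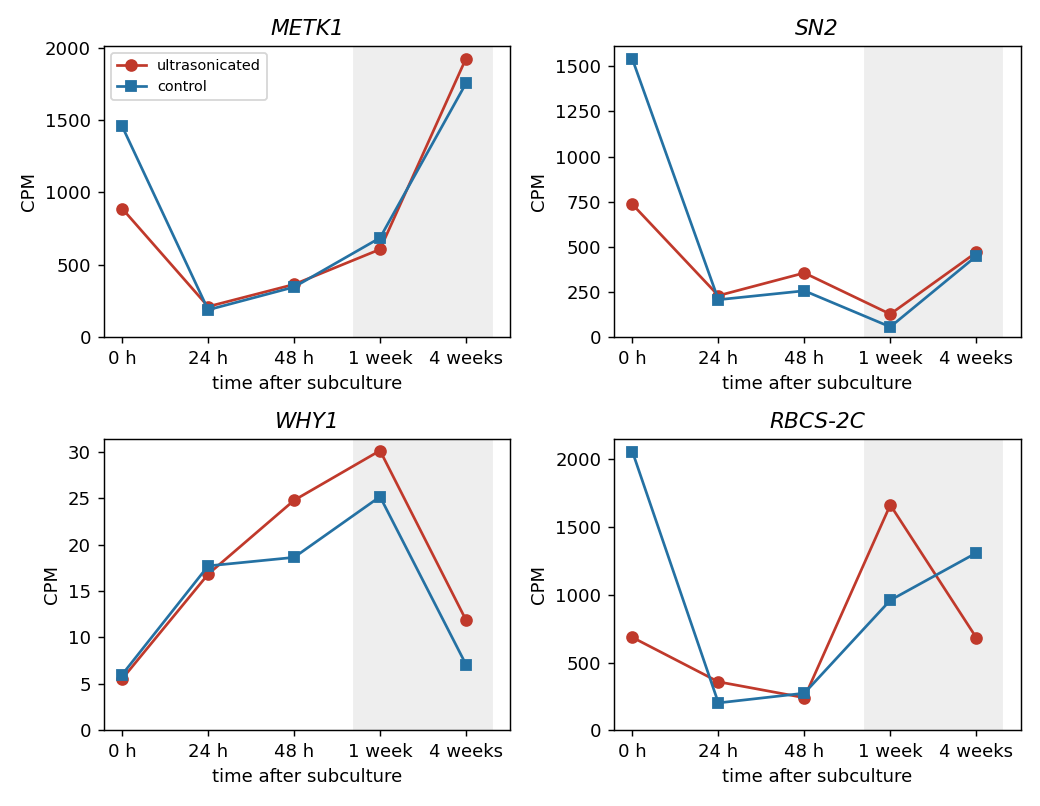
CPM of METK1, SN2, WHY1 and RBCS-2C at the 5 sampling times (x axis, evenly spaced and not to scale) in the ultrasonicated (red circles) and control (blue squares) arm, with 1 library per point and 1 and 4 weeks shaded. METK1 and SN2 were higher and WHY1 lower at 4 weeks than at 1 week in both arms, and the arms of RBCS-2C crossed.

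None of the mitochondrial genes passed. NDA1 and NDB1 encode alternative NAD(P)H dehydrogenases of the inner and outer face of the inner mitochondrial membrane. NDA1 had 22 CPM (ultrasonicated) and 17.6 CPM (control) at 4 weeks, against 23.6 and 12.4 CPM at 1 week (log2 0.1, edgeR adjusted p = 0.937). NDB1 had 35.8 and 39.5 CPM at 4 weeks, against 52 and 42.5 CPM at 1 week (log2 -0.32, edgeR adjusted p = 0.538). IVD and 2MBCD, acyl-CoA dehydrogenases of branched-chain amino acid breakdown, had log2 differences of -0.26 and 0.55 with edgeR adjusted p of 0.664 and 0.455. HMG3, a hydroxymethylglutaryl-CoA reductase of the isoprenoid pathway, had 0.25 (edgeR adjusted p = 0.738), and PCM6, a calmodulin, 0.36 (edgeR adjusted p = 0.474).

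The features called between 1 and 4 weeks had, for the most part, moved the opposite way just after cutting. This was read from the 4 libraries at 0 h and 48 h, which are not among the 4 compared at 4 weeks and 1 week but share the fitted arm term and spread with them. Of the 315 rises, 204 (64.8%) were called lower and 6 (1.9%) higher at 48 h than at 0 h. Of the 539 falls, 389 (72.2%) were called higher and 6 (1.11%) lower. Over all tested features 9.07% were called higher and 9.63% lower at 48 h than at 0 h. The median log2 change at 48 h from 0 h was -1.71 for the rises and 1.82 for the falls, against 0.07 over all features. In both arms 85.4% of the rises were lower at 48 h than at 0 h, against 32.2% of all features, and 90.5% of the falls were higher, against 38.7%.

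To separate the estimates, both comparisons were also fitted on their own 4 libraries alone. There 312 features were higher (1.19%) and 544 lower (2.08%) at 4 weeks than at 1 week. Of these 312 rises, 113 (36.2%) were lower and 9 (2.88%) higher at 48 h than at 0 h, against 5.85% and 3.88% of all features. Of the 544 falls, 276 (50.7%) were higher and 21 (3.86%) lower. Without the ultrasonicated library at 0 h, which had the lowest TMM factor (0.69), the opposite calls among the 315 and the 539 were 191 (60.6%) and 312 (57.9%), and with total counts as the scaling 159 (50.5%) and 465 (86.3%). The tissue label is stem at 0 h and stem and plantlet at 48 h, so time and tissue cannot be told apart in that comparison.

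**Figure D4:**
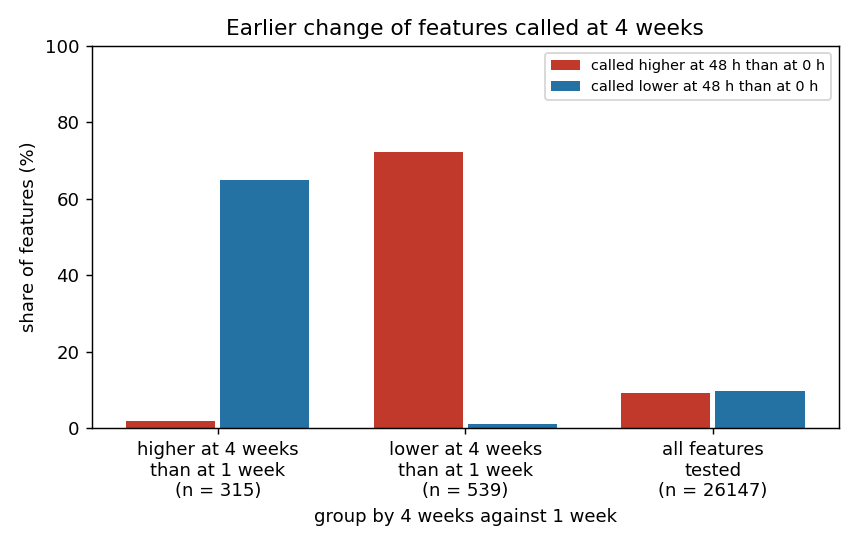
Share of features (y axis, %) called higher (red) or lower (blue) at 48 h than at 0 h, among the 315 features higher at 4 weeks than at 1 week, the 539 lower, and all 26147 tested. The shares were 1.9% and 64.8%, 72.2% and 1.11%, and 9.07% and 9.63%.

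Among the 3 early times, 264 of the 315 rises had their highest mean CPM at 0 h (83.8%, against 38.8% of all features), and 376 of the 539 falls had it at 48 h (69.8%, against 31.7%). By level, the rises had a median of 54.3 (ultrasonicated) and 62 CPM (control) at 0 h. It was 22 and 21.2 CPM after 24 h, 17.1 and 17.3 CPM after 48 h, 8.1 and 9.18 CPM at 1 week and 38.4 and 40.4 CPM at 4 weeks. The median of the falls was 12.4 and 9.82 CPM at the start (0 h), 25.7 and 27.8 CPM after 24 h, 42.6 and 35.4 CPM after 48 h, 48.2 and 37.1 CPM at 1 week and 8.99 and 12.3 CPM at 4 weeks. The 1-week and 4-week values were used to choose these groups and are given as a description. Over all tested features the library medians stayed between 7.65 and 8.63 CPM.

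**Figure D5:**
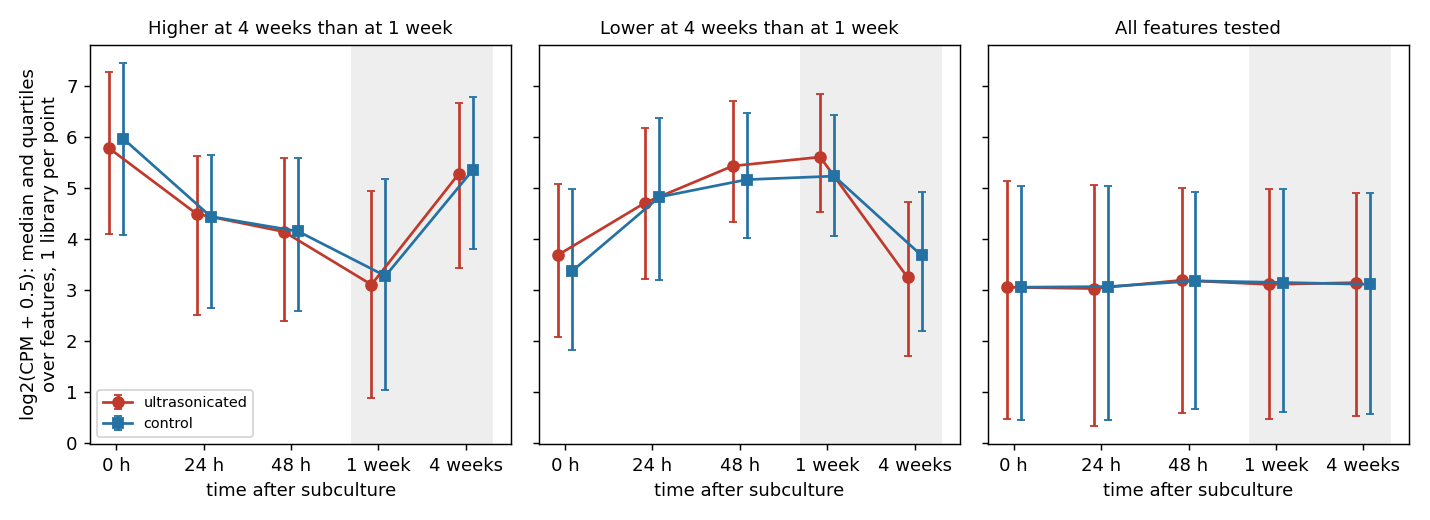
Median and quartiles of log2(CPM + 0.5) over the features higher at 4 weeks (left), lower at 4 weeks (middle) and all tested (right) at the 5 sampling times (x axis, evenly spaced and not to scale), with 1 library per point, ultrasonicated in red and control in blue, and 1 and 4 weeks shaded. The left group was high at 0 h and at 4 weeks, the middle group at 48 h and 1 week, and the right panel was flat.

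Set directly against 0 h, in a comparison that shares the 4-week libraries, the median log2 change at 4 weeks was -0.1 for the rises and 0.03 for the falls, against 0.11 for all features. Of the 315 rises, 30 were called above and 101 below their 0 h level at 4 weeks. Of the 539 falls, 20 were above and 55 below. Over all 26147 features 834 were above and 1978 below. Both shares were larger among the rises than over all features, and the shares of the falls lay nearer to those of all features. The tissue label is stem at 0 h and stem and plantlet at 4 weeks, so time and tissue cannot be told apart here either. The rises below 0 h included PGSC0003DMG400010713, which at 4 weeks had a log2 change of -3.24 against its own 0 h level (edgeR adjusted p = 0.00135).

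Called features lay on every chromosome. On the numbered chromosomes the share of tested features that rose ran from 0.879% (chromosome 11) to 1.52% (chromosome 7), and the share that fell from 1.6% (chromosome 12) to 2.81% (chromosome 11). Of 311 rises placed on a chromosome, 35 (11.3%) had a rise as the next tested feature on either side, against 2.41% of all placed features. For 31 (9.97%) of the rises that neighbour did not overlap them. Of 533 falls, 63 (11.8%) lay beside another fall, against 4.11% of all placed features, and 41 (7.69%) beside one that did not overlap. The shares of all placed features count overlapping neighbours too, and none was computed without them. Overlapping features may share reads, and tandem copies of a gene may too.

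The longest runs of neighbours held 3 features each and were chosen after their values were seen. On chromosome 3 (38141399 to 38153575) 3 short gene models on the plus strand rose by 4.05, 4.46 and 4.32 log2 units (edgeR adjusted p of 0.00744, 0.0165 and 0.0183). The first of them had 100 CPM (ultrasonicated) and 116 CPM (control) at 4 weeks, against 4.97 and 8.9 CPM at 1 week. Its neighbours, each spanning 738 bases, had 27 and 32.3 CPM and 26 and 36.4 CPM at 4 weeks, against 1.19 and 1.56 CPM and 0.605 and 3.71 CPM at 1 week. On chromosome 6 (56419824 to 56477965) 3 models of 530 to 590 bases on the minus strand fell, with log2 changes of -2.22, -2.08 and -2 (edgeR adjusted p of 0.0291, 0.0286 and 0.0223). The middle one had 52.4 and 42.3 CPM at 4 weeks, against 253 and 153 CPM at 1 week.

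Noncoding features, which a library of mRNA catches only in part, had 199 members tested and 0 called with edgeR (9 at an unadjusted p under 0.05, 7 of them lower). On the 4 libraries alone edgeR called 6 of them, and without the pair at 0 h, or its ultrasonicated library, 1. DESeq2 called 7 and limma-voom 1. Of all 26147 tested features, edgeR called 854 (3.27%) and 5756 had an unadjusted p under 0.05. EdgeR called 856 of all features on the 4 libraries alone and 1735 without the pair at 0 h. Over all 10 libraries DESeq2 called 3495 and limma-voom 1654. The 58 rRNA features summed to 354 CPM (ultrasonicated) and 1237 CPM (control) at 4 weeks, against 2535 and 2546 CPM at 1 week, lower in both arms, and their median log2 change was -2.16. The 25 small nuclear RNAs summed to 7.11 and 6.75 CPM at 4 weeks, against 9.72 and 8.85 CPM at 1 week. The 25 small nucleolar RNAs, guides of RNA modification, summed to 10.1 and 6.93 CPM at 4 weeks, against 6.17 and 8.1 CPM at 1 week. Leaving rRNA features out gave 974 calls, among them 851 of the 854.

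Whether the change from 1 to 4 weeks differed between the ultrasonicated and control arms was tested with an interaction term, with the spread taken from the early pairs. No feature passed with edgeR (0 of 26147, 0%). The smallest adjusted p by edgeR was 0.973. Before adjustment 1149 of the 26147 features lay under 0.05, a share below 0.05. Without the pair at 0 h edgeR still called 0, with a smallest adjusted p of 0.18 and 2800 features under 0.05 before adjustment. With limma-voom 0 passed and 1358 had an unadjusted p under 0.05, while DESeq2 called 118. Of 26147 features, 2800 and 1358 are shares above 0.05. A difference between arms at 1 library each is therefore not shown for any gene named here with edgeR, and it is not shown to be absent. In 29.6% of all tested features the arms moved opposite ways.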

How the data were processed

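The authors deposited 1 table of raw counts per annotated feature, with a column for each of 10 libraries. Columns were assigned to samples by name. HISAT2 2.1.0, FastQC 0.11.5 and Trim Galore 0.5.0 are named per the submitters' processing notes, and a stranded kit for mRNA per the labels' protocols. The sources used here do not give the genome build, annotation, counter or strand setting, and coordinates are as the table gives them. Of 40430 features, 1663 carried the label of an overlapping neighbour, so a symbol or class name was used only where the label's identifier was the feature's own.

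For testing, R 4.3.3 and edgeR 4.0.16 were used. filterByExpr on time kept 26147 features, and TMM set the scaling. An F-test by quasi-likelihood used an additive model of time and arm over all 10 libraries (4 residual degrees of freedom). The contrast is between the 4-week and 1-week terms, but the early libraries add to the estimates of spread and arm and so can shift a fold change, most where counts are low (ATPE -0.53, against 1.61 on the 4 libraries alone). Standard errors are approximate, taken as the log2 change over the square root of F. The interaction model had 2 residual degrees of freedom. CPM are scaled with the TMM factor, and 0.5 CPM was added before logs outside the model. Ratios within an arm have exact 95% binomial (Clopper-Pearson) intervals, which cover counting error only.

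By the naming rule, named genes were all those with a symbol and up to 3 noncoding features per direction called at a mean of at least 1 CPM, of which there were 0. The rule added identifiers without a symbol (the 2 largest rises and 2 largest falls called at a mean of at least 5 CPM, same direction in both arms) only if fewer than 10 genes could be named. Since 22 had a symbol, the 4 identifiers shown fall outside the rule, and they were included after values were seen. The comparison, gene lists and rules were chosen with earlier results of these data known. Lists that needed descriptions could not be matched. The alternatives were other scalings, filters, libraries, DESeq2 1.42.0 and limma-voom (limma 3.58.1). The fits of 48 h against 0 h, and those without the control library at 24 h or the ultrasonicated library at 0 h, were added after seeing the data.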

Additional observations from a re-analysis of the deposited data

Results flagged for a closer look

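In 5 of the 20 tested genes with a symbol the level at 4 weeks was below that at 1 week in the ultrasonicated arm and above it in the control arm. There was 1 library per arm and time. The 5 genes are listed because both exact binomial intervals lay on their own side of 1, and these intervals cover counting error only. The other tested genes with a symbol moved the same way in both arms. In 29.6% of all tested features the arms moved opposite ways, but that share counts either direction and sets no condition on the intervals. The share of all features that meets the conditions of the 5 genes is not given. The ratio in the ultrasonicated arm was as near 1 as 0.965 (EIF5A2) and 0.933 (NDA1). The log2 ratio of CPM + 0.5 in the ultrasonicated arm minus that in the control arm was -1.73 for RBCS-2C, -0.98 for ATPE, -0.6 for NDA1, -0.63 for EIF5A2 and -1.96 for RPOA. ATPE had 0 counts in the control library at 1 week, and ATPE and RPOA had at most 207 counts in any of the 4 libraries. The edgeR interaction test, which carries the spread between pooled libraries, did not pass for any of the 5 (adjusted p from 0.973 to 0.984).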

How the results depend on the processing

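The main count of 854 calls stayed within 1.5 times with median-ratio size factors, total counts, the 3 other filters, the 4 libraries alone and rRNA features left out (806 to 998). It moved to 3495 with DESeq2, 1654 with limma-voom, 1355 with no arm term, 1735 without the pair at 0 h, 220 without that at 24 h and 33 without that at 48 h. Leaving out 1 library of the 4 gave 0 to 216 calls, and leaving out the control library at 24 h gave 210 and the ultrasonicated library at 0 h 1683. The cause was not tested. Of the 854 features, 853 were called with DESeq2, 806 with limma-voom and 492 on the 4 libraries alone. Of the calls 36.9% were rises, against 84.8% (28 of 33) without the pair at 48 h, 47.3% without that at 24 h and 95.7% (22 of 23) without the ultrasonicated library at 4 weeks. With total counts the median over all features was 0.12 log2 units, against 0.03 with TMM. The interaction moved from 0 to 118 calls with DESeq2 and stayed at 0 in its other alternatives. Over 24 named genes and 456 values, 397 kept direction and side of the threshold, 42 lost the call, 4 gained it and 13 reversed. Most of the 397 belong to genes that had not passed and stayed uncalled. All 42 lost calls were those of METK1, SN2, WHY1 and the 4 identifiers. Reversals were confined to genes that had not passed: ATPE (1.63 with limma-voom, 1.61 on the 4 libraries alone, -1.95 to 7.79 leaving out 1 library), RPOA (0.05 with no arm term, 0.08 without the pair at 24 h or its control library, -1.53 to 0.96), SS2 (-0.03 to 0.55), NDA1 (-0.54 to 1.13), RBCS-2C (-1.04 to 0.24) and HMG3 (-0.14 to 0.73), each range leaving out 1 of the 4 libraries. Low counts limit ATPE, RPOA and PGSC0003DMG400020795 (as few as 0, 47 and 7 counts), and 1 pooled library per arm and time limits every value. Libraries were paired by arm in the model, whose removal gave the 1355 calls above; a pairing by replicate number could not be made, with 1 library per arm and time.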
